A study of Arabidopsis thaliana with 6 samples.

Results

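STZ, also called ZAT10, and ZAT12 are stress-response zinc-finger genes of Arabidopsis thaliana, and their transcripts were followed across wild type and the mutant alleles camta3-1 and camta3-2. STZ (locus AT1G27730, chromosome 1) was taken by the name that the platform annotation gives to probe set 261648_at. ZAT12 (locus AT5G59820, chromosome 5, RHL41 in RefSeq) was taken as probe set 247655_at, for which the platform annotation used here names no gene. These 2 genes each had 1 probe set among the 22746 probe sets measured. They were chosen with their values on these arrays already known, so their levels and differences between groups are a description and carry no test.

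Both genes encode small nuclear proteins of the C2H2 class, in which paired cysteines and histidines hold a zinc ion in each finger, and both proteins carry an EAR motif, a short sequence known to recruit co-repressors. Their transcripts are known to accumulate quickly after salt, cold, wounding, high light or hydrogen peroxide. STZ was named for raising the salt tolerance of yeast, and ZAT12 is known for its part in the response to reactive oxygen and for lowering transcripts of the cold regulators of the CBF family when overexpressed. The protein CAMTA3 binds calmodulin and DNA and is known to repress defence genes and to bind promoter elements with a CGCG core.

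Total RNA of plants 3 weeks old was measured on Affymetrix oligonucleotide arrays, with 2 arrays for each allele and 2 for the wild type, described by the submitters as biological replicates. The labels give no tissue, treatment or growth condition, and they give no kind of mutation for either allele. Values are log2 expression values, on which a difference of 1 is a doubling. Array medians lay between 6.18 and 6.26, and arrays of a group correlated at 0.992 to 0.995 and arrays of unlike groups at 0.986 to 0.994 over all probe sets. The 3' minus 5' log2 difference of the ubiquitin control was 1.19 and 1.20 on the camta3-2 arrays and 1.26 to 1.33 on the other 4. That of the GAPDH control was 0.45 on camta3-1 replicate 2, 0.46 on wild type replicate 2 and 0.14 to 0.29 on the other 4. The actin control had a larger difference, 3.39 to 3.55 over the 6 arrays. The part of these controls in the results was not tested. CAMTA3 itself was not analysed here, and the labels of the mutants therefore have no check by the mutated gene. Of the listed green tissue markers 1 of 8 was measured, the Rubisco activase gene RCA at log2 13.8 to 14.0, and of the root markers 2 of 7, EXPA18 at 4.28 to 4.68 and EXPA7 at 4.33 to 4.63. None of the 3 flower markers was measured. None of the 3 measured markers passed the test for the mean of both alleles (limma, smallest adjusted p = 0.749), where 1.41% of all probe sets passed.

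STZ was higher on every mutant array than on either wild-type array. Its log2 values were 4.92 and 5.06 on the wild-type arrays, 6.56 and 6.83 on the camta3-1 arrays, and 7.03 and 7.65 on the camta3-2 arrays. The 3 groups did not overlap, and the order was wild type, camta3-1, camta3-2. Group means were 4.99 ± 0.09 in wild type, 6.69 ± 0.19 in camta3-1 and 7.34 ± 0.43 in camta3-2 (SD, n = 2 each). The log2 difference from wild type was 1.70 in camta3-1, a 3.26-fold higher level, and 2.35 in camta3-2, a 5.10-fold higher level. For the mean of both alleles it was 2.03, or 4.08-fold, the difference ranked 62 of 22746 from the top. The lowest mutant array stood 1.51 above the highest wild-type array, more than the 0.61 between the camta3-2 replicates, the widest spread within a group. A full separation of this kind, with all mutants higher, was found for 7.89% of all probe sets, and since STZ was chosen for this contrast, nothing is read from its place among them.

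ZAT12 had a smaller difference and its groups were not fully separated. Its log2 values were 5.09 and 5.40 on the wild-type arrays, 5.85 and 5.25 on the camta3-1 arrays, and 5.99 and 5.69 on the camta3-2 arrays. The order of the means was again wild type, camta3-1, camta3-2, at 5.24 ± 0.22, 5.55 ± 0.43 and 5.84 ± 0.21 (SD, n = 2 each). Neighbours in that order overlapped, because the second camta3-1 array lay 0.15 below the higher wild-type array and the first camta3-1 array lay 0.16 above the lower camta3-2 array. Only camta3-2 and wild type were apart, by 0.30 between their nearest arrays, as camta3-2 was from wild type for 13.4% of all probe sets.

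In numbers, ZAT12 differed from wild type by 0.31 in camta3-1 (1.24-fold), by 0.60 in camta3-2 (1.52-fold) and by 0.45 for the mean of both alleles (1.37-fold), all on the log2 scale. The last of these ranked 800 of 22746 from the top. Of the 8 pairs of a mutant and a wild-type array, the mutant array was higher in 8 for STZ, by 1.51 to 2.72, and in 7 for ZAT12, with pair differences of -0.15 to 0.90. The mean of ZAT12 over the 6 arrays was 5.55, at percentile 42.3 of all probe sets, and that of STZ was 6.34, at percentile 51.3. RMA, the method behind these values, shrinks differences of dim probe sets, and its effect on ZAT12 was not tested. Whether more cells held a transcript or each cell held more of it cannot be told apart in RNA of whole samples.

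**Figure D1:**
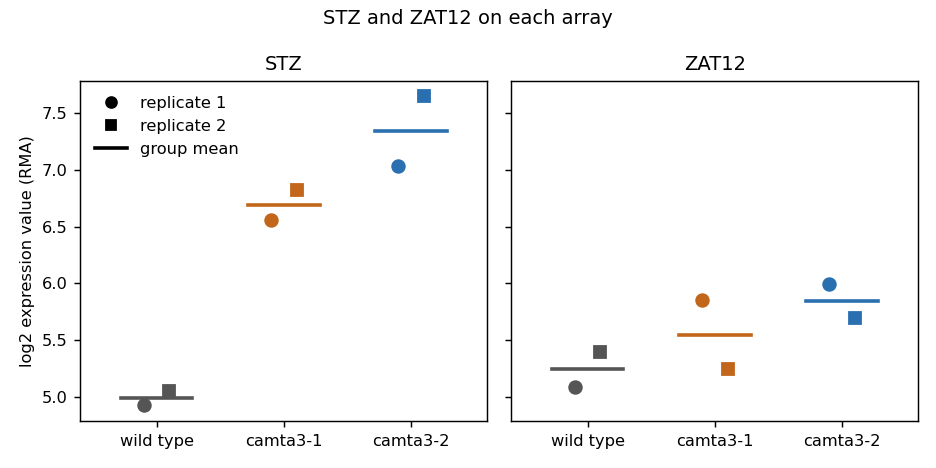
Log2 expression value (vertical axis) of STZ and ZAT12 on each array of the 3 groups, with circles for replicate 1, squares for replicate 2 and lines for group means. STZ runs from 4.92 and 5.06 in wild type to 7.03 and 7.65 in camta3-2 with no overlap between groups, whereas the ZAT12 values of neighbouring groups overlap.

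The alleles were compared with each other to see whether the genes stood at unlike levels in them. STZ was 0.65 higher in camta3-2 than in camta3-1 on the log2 scale, a ratio of 1.57, with a gap of 0.21 between the nearest arrays. The arrays of the alleles did not overlap, but that gap is smaller than the 0.61 between the camta3-2 replicates. Such an order without overlap was found for 14.9% of all probe sets. ZAT12 was 0.29 higher in camta3-2, with overlapping arrays. Without camta3-1 replicate 2 this ZAT12 difference was -0.012 and without camta3-1 replicate 1 it was 0.60, so its size depended on which camta3-1 array was kept. The difference for STZ was 0.34 without camta3-2 replicate 2 and 0.95 without camta3-2 replicate 1.

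The same dependence held for ZAT12 in camta3-1 against wild type. Without camta3-1 replicate 1 the log2 difference was 0.0020, and without camta3-1 replicate 2 it was 0.61. In camta3-2 it was 0.45 to 0.75 whichever array was left out. Without wild type replicate 1 or 2, the mean of both alleles stood 0.30 or 0.61 above wild type for ZAT12. STZ stayed between 1.57 and 1.84 in camta3-1 and between 2.04 and 2.66 in camta3-2 whichever array was left out.

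**Figure D2:**
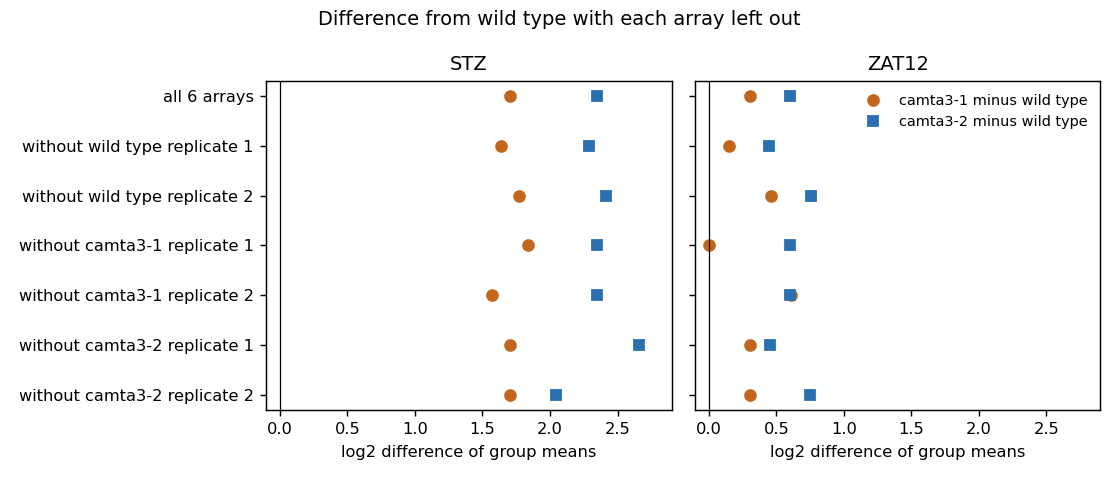
Log2 difference of group means from wild type (horizontal axis) for STZ and ZAT12 with all 6 arrays and with each array left out in turn, for camta3-1 (circles) and camta3-2 (squares). The STZ values stay at 1.57 or more, and the ZAT12 value of camta3-1 moves between 0.0020 and 0.61.

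Within groups the genes went opposite ways in the mutants. STZ was higher on replicate 2 than on replicate 1 by 0.27 in camta3-1, by 0.61 in camta3-2 and by 0.13 in wild type, on the log2 scale. ZAT12 was lower on replicate 2 by 0.61 in camta3-1 and by 0.30 in camta3-2, and 0.31 higher on it in wild type. The median absolute difference of all probe sets between replicates was 0.13 in wild type and in camta3-1 and 0.15 in camta3-2. The difference of STZ in camta3-2 was larger than that of 96.8% of probe sets, and the difference of ZAT12 in camta3-1 larger than that of 97.0%. Replicate 2 lay above replicate 1 in both mutants for 26.4% of all probe sets, as for STZ, and below it in both for 34.7%, as for ZAT12. The array numbers have no order or pairing in the labels, so these are statements about single arrays.

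**Figure D3:**
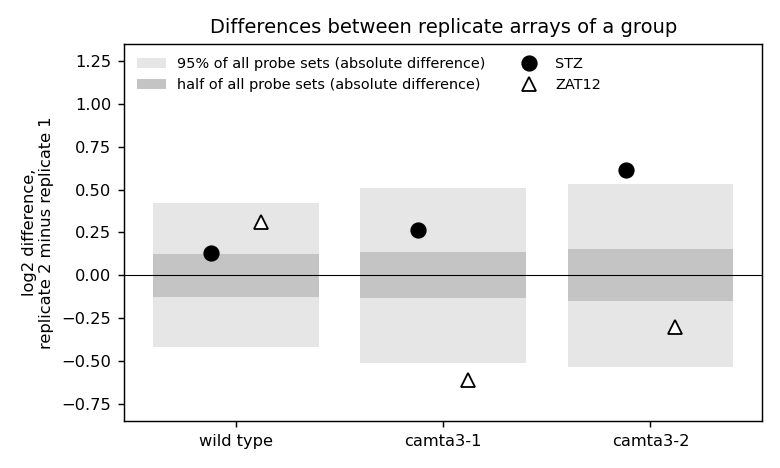
Log2 difference of replicate 2 minus replicate 1 (vertical axis) in each group, for STZ (filled circles) and ZAT12 (open triangles), over bands that hold the smaller absolute differences of all probe sets up to their median and their 95th percentile. STZ lies above 0 in all 3 groups, and ZAT12 lies at -0.61 and -0.30 in the mutants.

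Genes with the most similar values to each of the pair were sought among 13285 other genes with a named probe set. The measure was the root mean square difference over the 6 arrays, with each gene centred on its own mean. Nearest to STZ was AT5G19240 at 0.37, with log2 values of 6.83 and 7.32 in wild type, 9.33 and 8.67 in camta3-1, and 9.30 and 9.28 in camta3-2. It was followed by AT5G03350 at 0.39, AT1G74440 at 0.40, AT3G48650 at 0.41 and AT1G10340 at 0.42, with log2 differences for the mean of both alleles of 1.69, 1.74, 1.29 and 1.50. STZ itself varied by 1.01 about its mean, so these profiles were alike in the step from wild type to mutant and less so within groups. Only AT3G48650 of the 5, a transcribed pseudogene in the RefSeq table, was higher on replicate 2 in both alleles as STZ was, at 5.07 and 5.32 in camta3-1 and 4.90 and 5.80 in camta3-2.

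The profile of ZAT12 had closer counterparts. The nearest was AT3G28510 at 0.08, with log2 values of 3.38 and 3.46 in wild type, 4.08 and 3.36 in camta3-1, and 4.22 and 3.96 in camta3-2. AT3G56410 at 0.08, AT2G17710 at 0.09, AT2G41640 at 0.10 and AT5G40690 at 0.10 followed, and ZAT12 varied by 0.33 about its mean. All 5 were lower on replicate 2 than on replicate 1 in both alleles and higher on it in wild type, a pattern of 16% of all probe sets. Their log2 differences for the mean of both alleles were 0.41 to 0.61. STZ and ZAT12 were not each other's near counterparts by this measure, at a root mean square difference of 0.84. Among the 22746 probe sets ZAT12 ranked 707 in nearness to STZ, and STZ ranked 22624 in nearness to ZAT12. The measure is not scaled, so it counts unlike sizes of difference as distance even where the direction is shared. The 5 genes nearest to each were picked for likeness on the same 6 arrays and are named without a test.

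**Figure D4:**
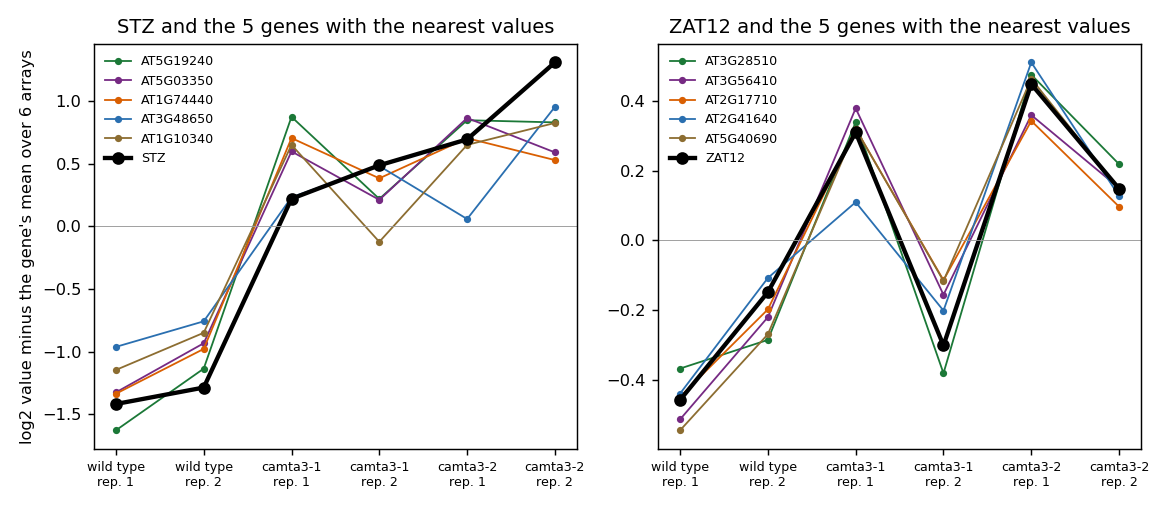
Log2 value minus the gene's own mean (vertical axis) on the 6 arrays for STZ (left, black) and ZAT12 (right, black) with the 5 genes nearest to each in colour. The STZ panel shows the step between wild type and mutants, and the ZAT12 panel shows the dip at camta3-1 replicate 2 that all 6 genes share.

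Other C2H2 zinc-finger genes were examined to see whether the difference of STZ was met in its relatives. Of 40 listed loci 17 were measured, and none passed an adjusted p of 0.05 (limma, Benjamini-Hochberg over all 22746 probe sets) in either direction for the mean of both alleles, for each allele alone or between the alleles. At an unadjusted p under 0.05 there were 4 for the mean of both alleles, 3 in camta3-1, 2 in camta3-2 and 1 between the alleles, where 13.4%, 12.2%, 11.2% and 6.34% of all probe sets were. Of all probe sets 1.41% passed for the mean of both alleles, 1.08% in camta3-1, 0.734% in camta3-2 and 0.0044% between the alleles, so a count of 0 among 17 does not set the relatives apart. Their median log2 difference for the mean of both alleles was -0.07, against -0.05 for all probe sets, and their range was -0.47 to 0.17. Most relatives were dim. All but GIS, AT2G28710 and AT3G49930 had means over the 6 arrays under log2 5.33, percentile 40 of all probe sets. The lowest wild-type mean was 3.50, for AT2G45120. Whether dim values hid differences was not tested.

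The 4 relatives with the smallest p lay on the opposite side from STZ. GIS, which promotes trichome formation, had log2 values of 7.40 and 7.51 in wild type, 6.93 and 6.77 in camta3-1, and 7.42 and 6.80 in camta3-2. Its log2 difference for the mean of both alleles was -0.47 (standard error 0.17, limma adjusted p = 0.286), and camta3-2 replicate 1 overlapped wild type. AT2G28710 stood at 5.98 and 6.03 in wild type, 5.60 and 5.74 in camta3-1, and 5.76 and 5.47 in camta3-2. It was lower on all mutant arrays, as were 15.8% of all probe sets. Its difference was -0.36 (standard error 0.12, limma adjusted p = 0.232). AT2G28200 and AT5G03510 were each at -0.41 (limma adjusted p = 0.322 and 0.323), and at -0.21 and -0.14 without wild type replicate 1. Without wild type replicate 2 they were at -0.62 and -0.68. The well-known stress relatives AZF1, AZF2, ZAT6, ZAT7 and ZAT11 had no named probe set and were not analysed here.

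Rapid stress regulators, whose transcripts respond within minutes to touch, wounding or elicitors, were taken as a list of 59 genes, of which 9 were measured. The list was written with results for WRKY53 and the PUB genes known, so it is not independent evidence of a direction. For the mean of both alleles 2 of the 9 rose and 0 fell, where 1.15% of all probe sets rose and 0.255% fell, and the median log2 difference of the list was 0.32. In camta3-1 alone 1 rose, where 0.805% of all probe sets rose and 0.277% fell. In camta3-2 alone, where 0.655% of all probe sets rose and 0.0791% fell, 0 passed with limma, with 4 at an unadjusted p under 0.05 (11.2% of all probe sets). Between the alleles 0 passed, with 2 at an unadjusted p under 0.05 (6.34% of all probe sets). The camta3-1 and camta3-2 contrasts share the wild-type arrays.

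WRKY53, a transcription factor of defence and leaf senescence, rose by a log2 difference of 1.91 (standard error 0.26, limma adjusted p = 0.0171). Its log2 values were 4.24 and 4.97 in wild type, 6.67 and 7.07 in camta3-1, and 5.83 and 6.51 in camta3-2. Like STZ it was higher on replicate 2 in all 3 groups, but its higher allele was camta3-1. PUB24, a ubiquitin ligase known to dampen immune signalling, rose by 0.98 (standard error 0.17, limma adjusted p = 0.0479), from 4.95 and 4.98 in wild type to 6.13 and 5.49 in camta3-1 and 6.17 and 5.97 in camta3-2. Like ZAT12 it was lower on replicate 2 in both alleles. WRKY53 did not pass without wild type replicate 1 or 2 (limma adjusted p = 0.209 and 0.061), where its log2 difference was 1.55 and 2.28. PUB24 did not pass without either wild-type array or either camta3-2 array. Its log2 difference ran from 0.82 to 1.13 with an array left out. In these fits the lone array left in a group is assumed to vary like the other groups.

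The calmodulin-like genes CML38 and CML37, which encode calcium-binding proteins, did not pass. CML38 stood at 4.005 and 4.007 in wild type, 4.33 and 4.14 in camta3-1, and 4.83 and 4.29 in camta3-2. It was higher on all mutant arrays, as were 7.89% of all probe sets (log2 difference 0.40, limma adjusted p = 0.335). CML37 was at 0.32 (limma adjusted p = 0.462) with overlapping arrays. PUB23 was at -0.25 and WRKY6 at 0.33, with limma adjusted p = 0.517 and 0.617. Of the 9 regulators, 3 had a higher mean in camta3-2 than in camta3-1, as STZ and ZAT12 had, and 6 a lower one, with a median log2 difference of -0.03.

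**Figure D5:**
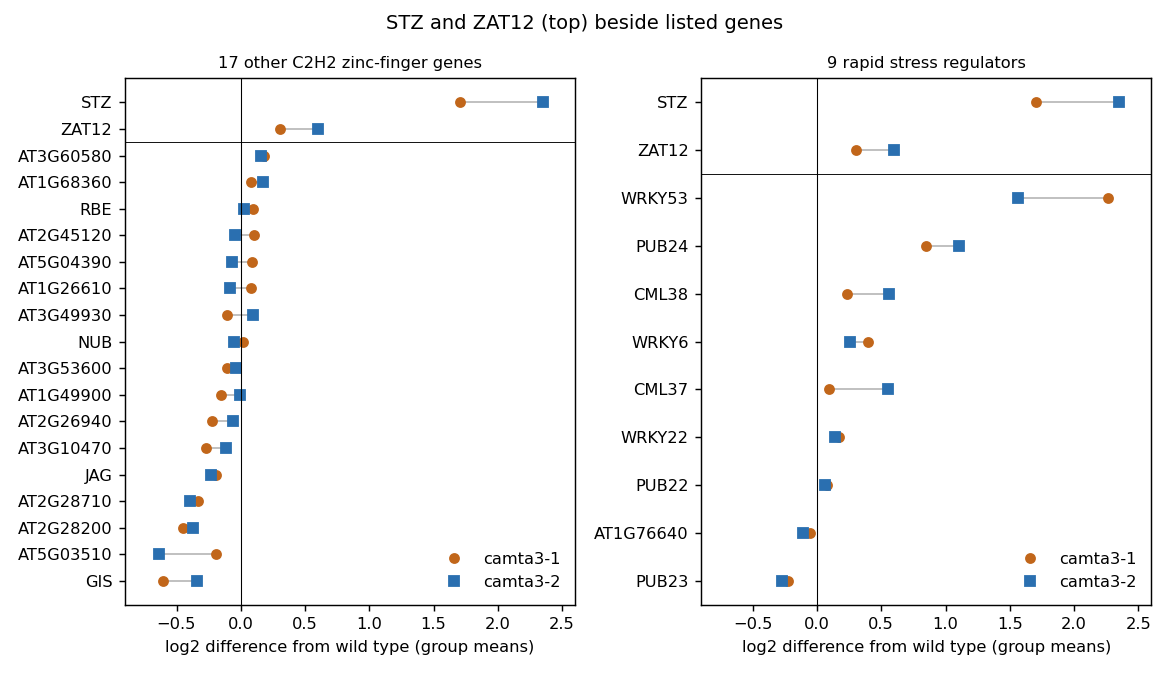
Log2 difference of group means from wild type (horizontal axis) in camta3-1 (circles) and camta3-2 (squares) for STZ and ZAT12 at the top and, below the line, for 17 other C2H2 zinc-finger genes (left) and 9 rapid stress regulators (right). The relatives run from -0.61 to 0.18 in camta3-1 and from -0.63 to 0.18 in camta3-2. WRKY53 lies at 2.26 in camta3-1 and 1.56 in camta3-2.

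Genes linked to the known roles of the pair were taken last. Of 29 listed reactive oxygen genes 6 were measured and 0 passed with limma for the mean of both alleles. Of all probe sets 1.41% passed, so a count of 0 among 6 does not set these genes apart. At an unadjusted p under 0.05 there were 4, as were 13.4% of all probe sets. The thylakoid ascorbate peroxidase gene TAPX, which removes hydrogen peroxide in chloroplasts, stood at 10.09 and 10.23 in wild type, 9.74 and 9.64 in camta3-1, and 9.66 and 9.81 in camta3-2. Its log2 difference was -0.44 (standard error 0.10, limma adjusted p = 0.111), with all mutant arrays lower, as for 15.8% of all probe sets. The others were at -0.68 for AT2G21640, 0.40 for ATMDAR2, a monodehydroascorbate reductase gene, -0.27 for the glutathione reductase gene GR, -0.15 for GR1 and -0.07 for the ascorbate peroxidase gene SAPX. The genes APX1 and APX2, often measured with ZAT12, had no named probe set.

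Cold, drought and salt response genes are known to lie downstream of the CBF regulators, and 3 of 20 listed were measured. None passed with limma for the mean of both alleles, where 1.41% of all probe sets passed, so that count does not set them apart. At an unadjusted p under 0.05 there were 3, as were 13.4% of all probe sets. The chloroplast cold-protection gene COR15A stood at 11.95 and 11.79 in wild type, 10.43 and 10.37 in camta3-1, and 11.36 and 10.47 in camta3-2. It was thus lower on every mutant array, as were 15.8% of all probe sets (log2 difference -1.21, limma adjusted p = 0.0534). It did pass with a replicate block (limma adjusted p = 0.0225), median centring (0.039), the filter on dim probe sets (0.0322) or the trended and robust prior (0.0421). It did not pass with cyclic loess (limma adjusted p = 0.0547) or the mean over probe sets of a gene (0.0541). Nor did it pass with the mutants pooled as a group against wild type (limma adjusted p = 0.0896). With an array left out, the log2 difference of COR15A ran from -1.43 to -0.99. COR15B was at -0.66 and the dehydrin gene COR47 at -0.58, with limma adjusted p = 0.138 and 0.339.

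Of 11 iron uptake genes 2 were measured, PYE at 0.49 and BHLH101 at -0.05 (limma adjusted p = 0.237 and 0.93), listed because ZAT12 is known to bind the iron regulator FIT. PYE was at 0.22 or 0.75 when wild type replicate 1 or 2 was left out. In the list of tandem CCCH zinc fingers 1 of 11 was measured, AT5G12850 at 0.05 (limma adjusted p = 0.875). The relatives of CAMTA3 measured, 3 of 6 in the list, were AT3G16940 at -0.18, AT4G16150 at 0.04 and AT1G67310 at 0.02, with limma adjusted p = 0.654 or more. No gene was measured of 13 MAP kinase pathway genes, whose kinases are known to phosphorylate STZ, or of 8 genes for co-repressors that bind EAR motifs.

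Genes beside STZ and ZAT12 on their chromosomes were examined as well. None of the 9 measured had all mutant arrays above wild type, as 7.89% of all probe sets had, so that count does not set them apart. Of the 12 genes nearest to STZ in gene order, 6 on each side, 3 were measured, with log2 differences for the mean of both alleles of 0.04 for AT1G27690, -0.28 for AT1G27700 and 0.11 for SAT32. All mutant arrays of AT1G27700 were below wild type, as for 15.8% of all probe sets. Around ZAT12, 6 of 12 were measured. The gene before it, the subtilase gene SBT5.4, was at 0.09 and the gene after it, AT5G59830, at 0.07. The largest was 0.42 for AT5G59845, whose values of 4.30 and 3.75 in wild type overlapped those of camta3-1, at 3.95 and 4.65, and which was at 0.69 or 0.14 when wild type replicate 1 or 2 was left out. These neighbours were chosen by position after the values of STZ and ZAT12 were known, and their differences were not tested.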

How the data were processed

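The deposited values were log2 expression values per probe set, 1 column per array, made by the authors with RMA (background correction, arrays given like distributions, probes summarised into probe sets) and with Partek (per the submitters' processing notes, with no version or filter given). A shift common to every transcript is lost in this method. The genes studied and all lists were chosen with earlier results of these data known, and list members were recalled by locus.

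Of 22810 probe sets 64 controls were left out. The platform annotation named 1 gene for 13513, several for 503 and none for 8730. Symbols came from RefSeq (assembly TAIR10.1), which placed 13436 of the 13513 and, with ZAT12, 13287 loci. Where a gene had more than 1 probe set, the brightest stood for it.

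The comparisons used limma 3.58.1 (R 4.3.3) over all 6 arrays with 1 mean per group, without a filter, with Benjamini-Hochberg adjustment of the p-values over 22746 probe sets (threshold 0.05). There were 3 residual and 4.43 prior degrees of freedom. Precision is limited by the number of arrays; for the mean of both alleles the median standard error was 0.11. The test was checked on simulated data with independent noise on each array. Deviations shared between arrays, as between same-numbered arrays of the alleles (correlation 0.40), were not part of that check.

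Named genes were STZ, ZAT12, the 4 C2H2 relatives and up to 6 genes of each other list with the smallest p for the mean of both alleles, and the 5 genes nearest in profile to each of the pair. Genes beside them on the chromosome were added later. The results were recomputed with median centring, with cyclic loess, with a replicate block, without the probe sets whose mean lay under percentile 40 (log2 5.33), with a trended and robust prior, with fits of the groups compared, with the mean over probe sets of a gene, and with each array left out. Plots were made in matplotlib 3.10.9 (Python 3.11.15).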

Additional observations from a re-analysis of the deposited data

How the results depend on the processing

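STZ was above wild type in either allele in all 9 settings tried for levels, which were the replicate block, cyclic loess, median centring and each array left out. ZAT12 was too, but in camta3-1 its log2 difference ran from 0.0020 to 0.61 with an array left out, and in camta3-2 that of STZ ran from 2.04 to 2.66. Between the alleles the range was 0.34 to 0.95 for STZ and -0.012 to 0.60 for ZAT12. The number of C2H2 relatives that passed was 0 in every setting that kept all 6 arrays. The filter on dim probe sets, however, kept only GIS, AT2G28710 and AT3G49930 of these relatives. Of the rapid stress regulators 1 passed when the mutants were pooled as a group against wild type (PUB24 had limma adjusted p = 0.0533), and 0 to 2 with an array left out. With an array left out the number of probe sets that passed was 5 to 458 for the mean of both alleles (320 with all arrays), 2 to 333 in camta3-1 (246), 5 to 270 in camta3-2 (167) and 1 to 7 between the alleles (1). The 270 came from leaving out either camta3-1 array, after which the lone camta3-1 array adds nothing to the spread, as when only camta3-2 and wild type were fitted (270), and leaving out an array of camta3-2 or wild type gave 5 to 55. The deviations of same-numbered arrays correlated at 0.40 between the alleles, 0.13 between camta3-2 and wild type and -0.04 between camta3-1 and wild type. Same-numbered arrays of the alleles thus shared part of their deviations, while those of wild type followed them little or not at all. The labels give no pairing, and the source of the shared part was not tested. With a replicate block 493, 430 and 280 probe sets passed for the mean of both alleles, camta3-1 and camta3-2, and STZ and ZAT12 kept their differences because the design is balanced. COR15A passed in some settings and not in others, as given above. AT2G21640 passed with the replicate block (limma adjusted p = 0.041), and COR15B without camta3-2 replicate 1 (0.0281). Among other small differences, these changed sign with an array left out, at -0.061 to 0.10 for AT1G67310, -0.12 to 0.20 for AT4G16150, -0.045 to 0.15 for AT5G12850, -0.18 to 0.04 for SAPX, -0.064 to 0.29 for SAT32, -0.012 to 0.093 for AT1G27690 and -0.33 to 0.22 for BHLH101, which was at 0.0068 with cyclic loess. The cause was not tested. The mean of ZAT12 lay near the 40th percentile, and an effect of dim values on its differences was not tested.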
